A study of Mus musculus with 12 samples.

Results

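Inside long genes of the mouse, far from the outer ends of any protein-coding gene, CTCF occupied 2932 sites in the fed liver. Joining the peaks of all 6 ChIP libraries wherever they shared 1 bp or more gave 76061 sites, and 44909 of these had a peak in all 3 fed libraries (fed sites). A deep site is a fed site whose midpoint lay inside a protein-coding gene of 200 kb or longer and 50 kb or more from any annotated end of a protein-coding gene. Deep sites made up 6.53% of the fed sites. They lay in 760 of the 989 genes of that length, with a median of 3 and at most 24 in a gene, and 4 of them lay in an overlap of such genes. The members were chosen by position and by their fed calls, so only their starved calls, scores and widths were left to describe.

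The study compared livers of wild-type male C57BL6/Ncrl mice, 3 to 4 months old, kept in a light and dark cycle. Fed mice had free access to normal chow and their livers were collected at ZT16 (zeitgeber time, hours after lights on). Starved mice had gone without food for 24 h and their livers were collected at ZT13, so collection time differed along with feeding. Each state had 3 libraries made with the same CTCF antibody from snap-frozen whole liver, a mixture of hepatocytes and other cells. The lists held 49030 to 74950 peaks in the fed and 23926 to 30752 in the starved libraries, and their read depth is unknown. Whether each library was made from its own mouse is not stated, so a p-value here measures only the spread between libraries, which may be technical. Every deep site had 3 fed peaks by its definition, so a peak that is not found after starvation cannot be told apart from a peak that the shorter starved list did not reach.

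CTCF is a zinc finger protein that binds a long DNA motif and halts the extrusion of chromatin by cohesin, which leaves it at the anchors of chromatin loops. At promoters it is found beside active genes and enhancers. Inside genes it lies at loop anchors, at enhancers held within introns and near alternative starts, and it is known to slow RNA polymerase and to affect the inclusion of exons. Very long genes code mostly for proteins of neurons, muscle and the cell surface, and many are silent or weakly transcribed in hepatocytes, while some, such as Rora, Ghr and Wwox, are liver genes.

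A small number of deep sites lay over an annotated start of transcription even though they were far from the outer ends of every protein-coding gene. Of the 2932, 37 overlapped a RefSeq start window (assembly GRCm38.p6, the build of mm10; 250 bases before to 50 after a start). For 24 it was an inner start of the long gene itself, and for the other 13 a start of another transcript within it. Sequence was used here only for the 250 bases before such a start, which overlap the called site wholly, in part or, in the window of Gm12002 in Cobl, not at all. They were searched on both strands for 4 words of 7 letters that resemble the core of the CTCF motif. The first word was AGGGGGC and the second word was AGGTGGC. The third word was AGATGGC and the fourth word was AGAGGGC. Of the 37 sites, 12 had a match in at least 1 of their windows. A match was found in 23.6% of all 32851 RefSeq windows of the same length and in 31.8% of the 44 windows at deep sites. The windows at deep sites had a median GC content of 63.2%, against 52.4% over all windows. A match is a run of letters and not a measured contact.

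The 5 stretches shown here let the letters be compared between sites that were called after starvation and sites that were not. Besides the window in Prkce, the best-ranked site over a noncoding start with a match, they are the best-ranked sites over an inner start of their own gene with and without a match, among those called in all 3 starved libraries and among those called in none. Each runs 5′ to 3′ on the strand of the transcript, and capitals mark the matches. Within Prkce, which codes for protein kinase C epsilon, the window belongs to the noncoding gene Gm30284 (chr17:86444988-86445237, minus strand):
Prkce, start of Gm30284: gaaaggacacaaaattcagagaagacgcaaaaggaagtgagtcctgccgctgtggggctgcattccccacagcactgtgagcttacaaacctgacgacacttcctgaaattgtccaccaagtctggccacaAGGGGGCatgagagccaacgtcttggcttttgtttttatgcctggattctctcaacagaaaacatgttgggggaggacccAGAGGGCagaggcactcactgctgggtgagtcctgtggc
The inner start of Tafa5, a secreted protein, had a match and 3 starved peaks (chr15:87624980-87625229, plus strand):
Tafa5: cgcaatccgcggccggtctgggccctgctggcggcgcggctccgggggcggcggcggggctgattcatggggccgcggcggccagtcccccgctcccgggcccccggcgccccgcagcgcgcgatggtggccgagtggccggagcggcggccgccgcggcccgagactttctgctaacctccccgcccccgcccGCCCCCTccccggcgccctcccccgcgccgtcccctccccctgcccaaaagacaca
The inner start of Cdyl, a chromodomain protein of gene repression, had no match and 3 starved peaks (chr13:35741152-35741401, plus strand):
Cdyl: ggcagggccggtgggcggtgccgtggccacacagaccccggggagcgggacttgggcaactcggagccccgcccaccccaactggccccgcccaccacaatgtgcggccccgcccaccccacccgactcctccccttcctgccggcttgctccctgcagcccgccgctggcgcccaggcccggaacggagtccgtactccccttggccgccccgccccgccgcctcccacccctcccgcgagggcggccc
The inner start of Iqsec1, an exchange factor for Arf GTPases, had matches and no starved peak (chr6:90810124-90810373, minus strand):
Iqsec1: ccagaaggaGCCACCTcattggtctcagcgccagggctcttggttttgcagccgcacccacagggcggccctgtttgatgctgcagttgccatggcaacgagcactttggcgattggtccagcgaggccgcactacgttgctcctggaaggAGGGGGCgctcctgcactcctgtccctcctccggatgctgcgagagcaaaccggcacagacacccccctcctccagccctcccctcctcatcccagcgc
The inner start of Rarb, the retinoic acid receptor beta, had no match and no starved peak (chr14:16575477-16575726, minus strand):
Rarb: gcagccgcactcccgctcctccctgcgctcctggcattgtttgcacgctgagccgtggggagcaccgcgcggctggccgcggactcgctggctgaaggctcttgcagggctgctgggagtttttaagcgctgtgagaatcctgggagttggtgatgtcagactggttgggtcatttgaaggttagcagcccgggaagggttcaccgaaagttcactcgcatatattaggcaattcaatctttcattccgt

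The Prkce site (chr17:86444567-86445550) had scores of 177, 195 and 228 in fed libraries 1 to 3 and of 92.0, 55.2 and 73.2 in starved libraries 1 to 3. These are the authors' own values per peak, which rank peaks only within a list. The Tafa5 site scored 168, 164 and 314 in the fed lists and 50.04, 74.5 and 43.2 in the starved ones, and the Cdyl site 93.7, 102.998 and 141 and then 34.1, 25.1 and 26.6. The fed-only sites had lower fed scores, with 39.2, 13.4 and 45.5 at Iqsec1 and 34.4, 26.6 and 64.7 at Rarb. A match was present at sites with and without starved peaks: of the 12 sites with a match, 6 were called in all 3 starved libraries and 5 in none, and of the 25 without a match 9 were called in all 3 and 9 in none. Of the 24 sites over an inner start of their own gene 12 had a starved peak (50%, exact 95% interval 29.1 to 70.9), where 14.4 would be expected from their fed rank as defined below. Others of these 24 lay in Dst, Fhit, Runx1, Foxp1, Cacna1c and Slc4a4, each fed-only, and in Phldb2, Etl4, Nlgn1 and Arhgap6, each called in all 6 libraries.

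After starvation most deep sites were still called. A starved peak, meaning one in any of the 3 starved libraries, was present at 1947 of the 2932 (66.4%, exact 95% interval 64.7 to 68.1), beside 70.9% of all fed sites. In all 3 starved libraries 1319 (45.0%, interval 43.2 to 46.8) had a peak, beside 49.3% of all fed sites, and in none 985 (33.6%), beside 29.1%. The remaining 305 and 323 were called in 1 and in 2 starved libraries. By library, 59.1% of deep sites were called in starved 1, 48.2% in starved 2 and 60.1% in starved 3, and for all fed sites the shares were 64.9, 51.6 and 63.6%. The share was thus lower at deep sites in each of the 3 starved libraries, by 3.43 to 5.81 percentage points, shares that are only described since sites of a library are not replicates and 3 libraries allow no test under 0.05. The intervals cover counting error only. With every list cut to the length of the shortest, 98.6% of 1294 deep sites and 98.8% of all fed sites had a starved peak.

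Sites found after starvation and in no fed library were rare: 1 of the 4897 merged sites deep inside long genes, whatever their calls, and 76 of all 76061 merged sites (0.0999%). Of the deep merged sites called in all 3 starved libraries 0 lacked a peak in 1 or more of the fed libraries, and over all merged sites 3 such sites did (0.00394%).

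Rank within the fed lists went with these calls. The score of each peak was turned into a percentile of its own list, and the mean over the 3 fed lists is called the fed rank. Deep sites had a median fed rank of 58.7, against 61.0 over all fed sites, and 6.75% of them ranked above 90, against 12.8% of the other fed sites. Fed sites outside genes and 50 kb or more from any protein-coding gene end were similar, with a median of 59.8 and 6.56% above 90. Every deep site with a fed rank of 70 or more had a starved peak (407 between 70 and 80, 351 between 80 and 90 and 198 above), as did every other fed site in these bands, a limit that was chosen after the values were seen. Between 60 and 70 it was 440 of 449 (98.0%) and between 50 and 60 329 of 417 (78.9%), where the other fed sites had 98.7 and 82.2%. Below that the deep sites had the smaller shares: 37.1% (interval 32.5 to 41.9) against 47.6% of the others between 40 and 50, 13.6% (10.2 to 17.7) against 24.5% between 30 and 40, and 4.94% (2.58 to 8.47) against 12.8% between 20 and 30. Had deep sites been called like all fed sites of the same band of 10 rank points, 2061 of them (70.3%) would have had a starved peak, 3.90 percentage points more than did. This gap of −3.90 points was −0.60 with only peaks at or above the median score of all lists. That score, 30.4, was 1 cut for all lists, although scores rank peaks only within a list. With lists of equal length the gap was 0.19. There 98.4% were expected, so nearly all sites were called and this setting says little about the gap. For a peak in all 3 starved libraries the expected and the observed numbers were 1330 and 1319. Between ranks of 40 and 50 only 2.09% of deep and 2.15% of other fed sites had a peak in all 3. These numbers could therefore hardly show a gap at low rank. Fed sites outside genes and far from any end also fell short of the share expected, with 66.9% having a starved peak against 71.5%. Fed sites inside long genes but within 50 kb of an end had 68.0% against 69.7%.

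**Figure D1:**
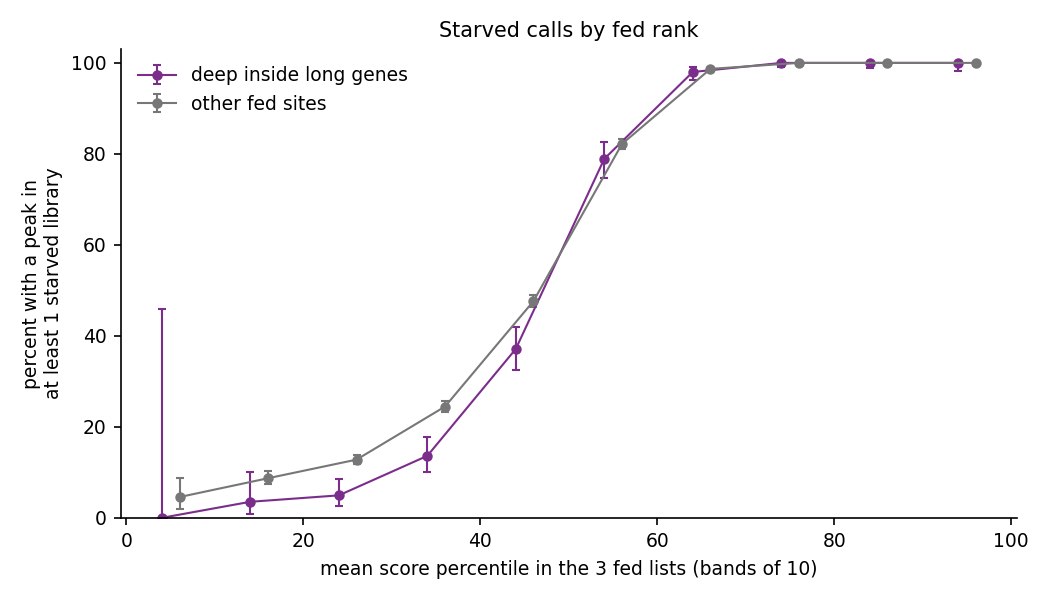
Percent of fed sites with a starved peak (y axis) by mean score percentile in the 3 fed lists (x axis, bands of 10 points), for the 2932 sites deep inside long genes and for the other fed sites. Points are shares and bars exact 95% intervals; the curves run together above a rank of 60, and below it the deep sites lie lower, with 4.94% against 12.8% between 20 and 30.

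The gap was seen in 2 of the 3 starved libraries. In starved 1, 1732 deep sites were called where 1857 would be expected from fed rank, a difference of −4.26 points. In starved 3 it was 1763 against 1823, or −2.03 points. In starved 2, the shortest list, it was 1413 against 1412, or 0.05 points. Without starved 1 the gap in sites with any starved peak was −2.09 points in place of −3.90. Sites with a fed rank between 20 and 50, a range chosen after the values were seen, show what the deep sites were compared with. Of 2825 such weak sites within 1 kb of a protein-coding gene end, 36.0% were called in starved 1, 2.44% in starved 2 and 24.4% in starved 3. Of the 1019 weak deep sites these libraries called 14.8, 2.55 and 11.6%. For 1581 weak sites outside genes and 50 kb or more from any end the shares were 13.8, 2.47 and 11.3%, and for the 10794 weak fed sites that were not deep and 1 kb or more from an end 17.9, 2.40 and 13.01%. For the 665 weak sites inside long genes but within 50 kb of a gene end the shares were 17.4, 1.50 and 13.4%. Weak deep sites therefore stood close to weak intergenic sites in every starved library. Sites within 1 kb of gene ends stood apart from all of these groups in starved 1 and starved 3. Starved 2 called so few weak sites of any kind that it could hardly show a gap among them.

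Where each library placed its peaks was compared next, from the peaks of each list alone and without the rule on fed calls. In the fed libraries 6.502, 6.44 and 6.38% of the peaks lay deep inside long genes, and in the starved libraries 5.80, 6.03 and 6.07%. The groups did not overlap: every starved library had a smaller share than every fed one. The means were 6.44 ± 0.062% and 5.97 ± 0.15% (SD, n = 3 each), so starved minus fed was −0.48 points (exact permutation over libraries, two-sided, p = 0.1), the smallest p that 3 libraries against 3 allow. Adjusted over the 4 permutation tests made, p was 0.267. With lists of equal length the difference was −0.21 points, and with only peaks above the median score of all lists −1.56 points.

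Inside the long genes themselves the balance between interior and edge was compared as a ratio of peak densities. Long genes covered 419 Mb, of which 311 Mb lay deep and 109 Mb within 50 kb of an end. The density of peaks in the interior was 0.524, 0.517 and 0.521 times that at the edge in the fed libraries and 0.507, 0.528 and 0.523 times in the starved ones, so the starved values spanned the fed ones. The means were 0.521 ± 0.0037 and 0.519 ± 0.011 (SD, n = 3 each; exact permutation p = 0.9, adjusted p = 0.9), a difference of −0.0014 that was less than the spread of the libraries. It depended on the setting: with only peaks above the median score of all lists the means were 0.535 and 0.451, and the starved libraries lay apart from the fed ones (−0.083, exact permutation p = 0.1). That setting applied 1 score, 30.4, to all lists, so its fed and starved values may not be comparable. With 100 kb in place of 50 kb from gene ends the difference was −0.018, and with the ends of all annotated genes −0.019, both with an exact permutation p of 0.1. As sites, fed livers had 9.44 deep sites per Mb of interior and 17.9 fed sites per Mb of edge.

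**Figure D2:**
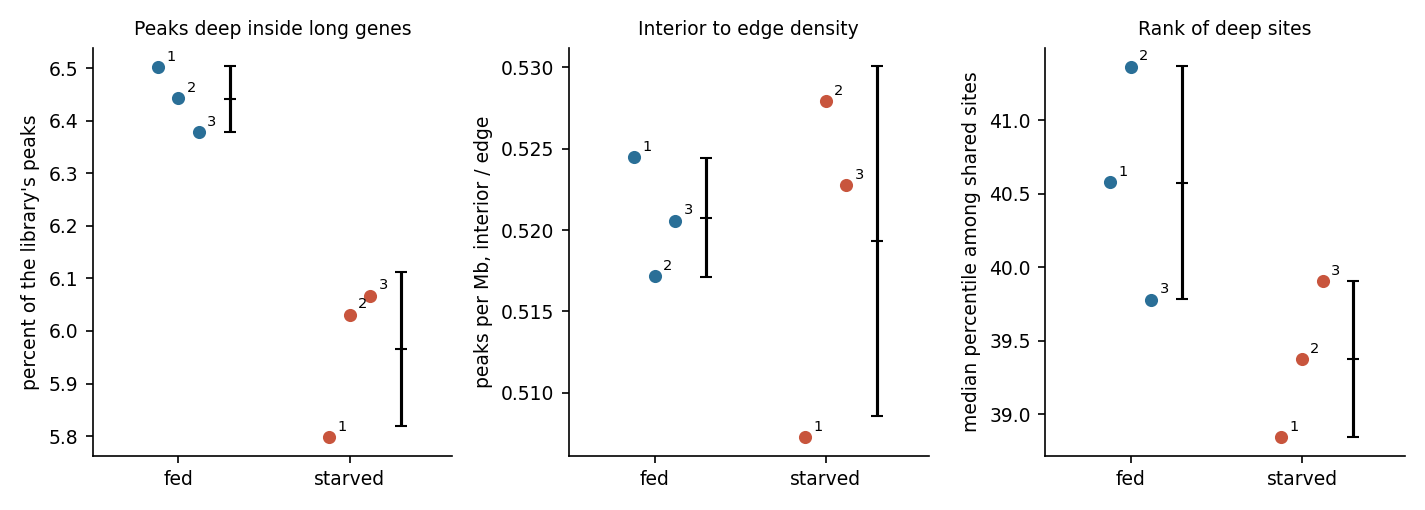
Values per library, fed and starved (x axes; numbers are replicates, black bars mean ± SD of 3): the percent of peaks deep inside long genes, the density of peaks (per Mb) in the interior over that at the edge of long genes, and the median score percentile of deep sites among sites called in all 6 libraries. The y axes do not start at 0; the groups are apart in the share of peaks, at 6.38 to 6.502% and 5.80 to 6.07%, and overlap in the other two.

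Peaks were densest at the gene ends and sparsest at the greatest depth. Scaled to 10000 peaks of a list, fed libraries had 10.7 ± 0.23 peaks per Mb within 5 kb of a gene end, 3.404 ± 0.11 between 5 and 10 kb, 3.25 ± 0.058 between 10 and 25 kb, 2.76 ± 0.017 between 50 and 100 kb, 1.42 ± 0.021 between 200 and 400 kb and 0.897 ± 0.022 at 400 kb or more. Starved libraries had 8.90 ± 0.79, 3.25 ± 0.022, 3.43 ± 0.16, 2.63 ± 0.068, 1.25 ± 0.046 and 0.808 ± 0.095 (SD, n = 3 each). The course was not even: from 5 to 10 kb to 10 to 25 kb the density rose in each of the 3 starved libraries. The widest gap between the groups was at the gene ends. These densities were described and not tested one by one.

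**Figure D3:**
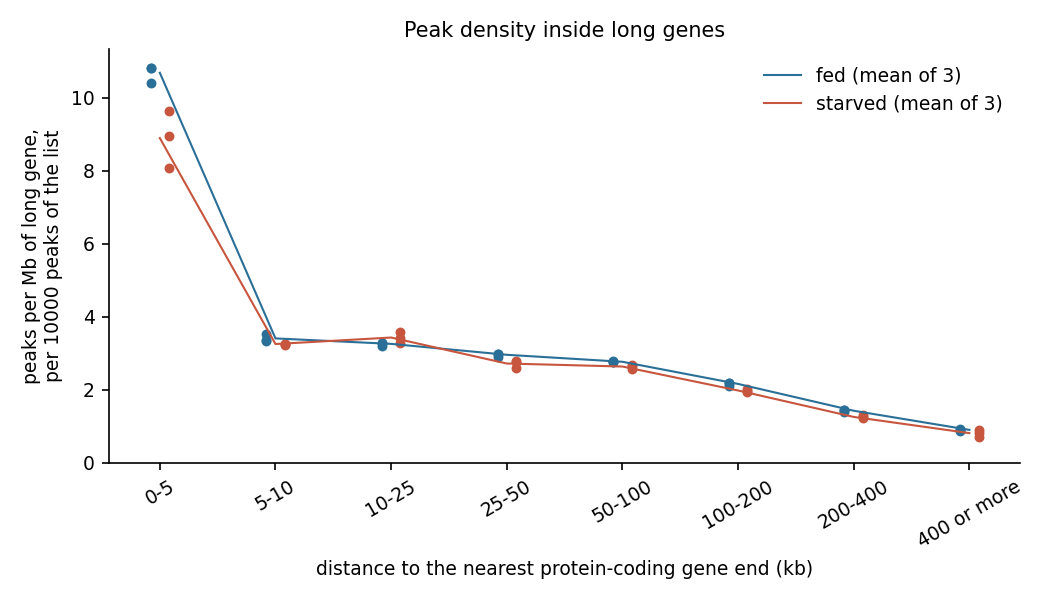
Peaks per Mb inside genes of 200 kb or longer, per 10000 peaks of the list (y axis), by distance to the nearest protein-coding gene end (x axis, kb). Points are libraries and lines the means of 3; density falls from about 10.7 in fed libraries within 5 kb of an end to 0.897 at 400 kb or more.

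Among sites called in all libraries, deep sites were weaker and narrower than the rest. Of the 22131 sites called in all 6 libraries 1319 were deep. Ranked by score over these shared sites alone, so that list length does not enter, deep sites had a median percentile of 40.6, 41.4 and 39.8 in the fed and of 38.8, 39.4 and 39.9 in the starved libraries, where 50 is the middle of all shared sites. The lowest fed value lay below the highest starved one (means 40.6 ± 0.79 and 39.4 ± 0.53, SD, n = 3 each; exact permutation p = 0.2, adjusted p = 0.267). Their peaks had a median width of 648, 559 and 723 bp in the fed libraries, where other shared sites had 702, 620 and 789 bp. In the starved libraries it was 359, 230 and 295 bp against 418, 254 and 333 bp. The ratio of deep to other widths was 0.914 ± 0.011 in fed and 0.883 ± 0.023 in starved livers (SD, n = 3 each; exact permutation p = 0.2, adjusted p = 0.267). Below-average rank and width at deep sites thus held in each of the 6 libraries. With only peaks above the median score the rank difference of −1.20 was −3.69, and with the ends of all annotated genes −2.55 (exact permutation p = 0.1 each), and it was −0.69 without starved 2. The width difference of −0.030 was −0.016 without starved 1 and −0.019 without starved 2.

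The share called after starvation was smallest at the greatest distance from a gene end. Of 1257 deep sites between 50 and 100 kb from an end 67.8% had a starved peak, of 1132 between 100 and 200 kb 66.3%, of 416 between 200 and 400 kb 65.1% and of 127 at 400 kb or more 58.3% (exact interval 49.2 to 67.0). The shares expected from fed rank were 70.2, 69.9, 71.0 and 72.5%. The 127 farthest sites lay in 47 genes and included 11 in Rbfox1 and 8 each in Pde4d, Nrxn3 and Ptprd. By library 50.4, 48.8 and 55.1% of them were called in starved 1, 2 and 3, and without starved 1 57.5% had a starved peak, where 65.5% would be expected. Fed sites outside genes went from 71.8% (74.3% expected) between 50 and 100 kb to 55.5% (66.3% expected) of 461 sites at 400 kb or more. By gene length, 58.9% of 314 deep sites in genes of 1000 kb or longer had a starved peak (69.5% expected from fed rank), against 70.0% of 1026 in genes of 300 to 500 kb (71.8% expected). No test was made of these shares, since sites of the same gene and library are not independent.

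Position along the direction of transcription was compared where the RefSeq table gave a strand. This held for 2280 deep sites. The part of the gene nearer the start held 1122 of them, with 67.7% called after starvation, and the part nearer the end 1158, with 65.2%. Their exact 95% intervals, 64.9 to 70.5 and 62.4 to 67.9, overlap. Deep sites stood farther from their neighbours than other fed sites: the nearest other fed site was at a median of 18.3 kb, against 8.81 kb for the rest and 26.6 kb for sites outside genes and far from them. For 24.1% of deep sites it was beyond 50 kb, against 9.06% of the rest. The 1377 deep sites with no other fed site within 20 kb had a starved peak in 62.6% of cases (68.4% expected from fed rank), and the 614 with a neighbour within 5 kb in 69.2% (71.2% expected).

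The genes with most deep sites included genes of the liver and of neurons. Rora, a nuclear receptor of the clock and of lipid metabolism, and Nav2, a cytoskeletal protein of neurite growth, each held 24. They differed in strength: the median fed rank was 43.7 in Rora and 76.9 in Nav2. In Rora 11 sites had a starved peak (12.5 expected from fed rank) and 7 were called in all 3 starved libraries, and in Nav2 it was 20 (20.4 expected) and 16. The best site of Rora (chr9:68813893-68814605) scored 133, 122 and 247 in the fed and 47.8, 23.7 and 53.7 in the starved lists. The best Rora site without a starved peak (chr9:68966481-68966814) scored 17.7, 40.2 and 71.3 in the fed lists. That of Nav2 called in all libraries (chr7:49132355-49133380) scored 208, 245 and 246 and then 132, 69.4 and 116. In the sentences that follow, a gene is said to keep a site that had a starved peak.

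Pde4d, a phosphodiesterase that degrades cAMP, held 21 deep sites over 1302 kb. Of these, 16 had a starved peak (17.1 expected from fed rank) and 15 were called in all 3 starved libraries (14.4 expected). Gse1 also held 21, 18 of them with a starved peak (16.9 expected). Fry, Camta1, Kalrn and Agap1 held 20, 18, 18 and 17 sites, and 14, 13, 14 and 15 of these had a starved peak. Camta1 codes for a calmodulin-binding transcription activator, Kalrn for a guanine nucleotide exchange factor and Agap1 for a GTPase-activating protein of Arf. Sox5, an HMG-box transcription factor, kept the fewest of the 15 genes: 4 of 16 had a starved peak (5.78 expected) at a median fed rank of 36.1. Rbfox1, a splicing regulator of neurons and muscle, kept 7 of 15 where 11.01 would be expected, the widest shortfall among the 15 genes. In Plcb1, a phospholipase C of hormone signalling, it was 11 of 14 (10.8 expected), in Itpr2, an inositol trisphosphate receptor that releases calcium in hepatocytes, 9 of 14 (9.61), in Shank2, a postsynaptic scaffold, 9 of 15 (10.3), in Wwox 7 of 13 (8.02), and in Ank3, an ankyrin of the membrane skeleton, 11 of 13 (10.99).

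**Figure D4:**
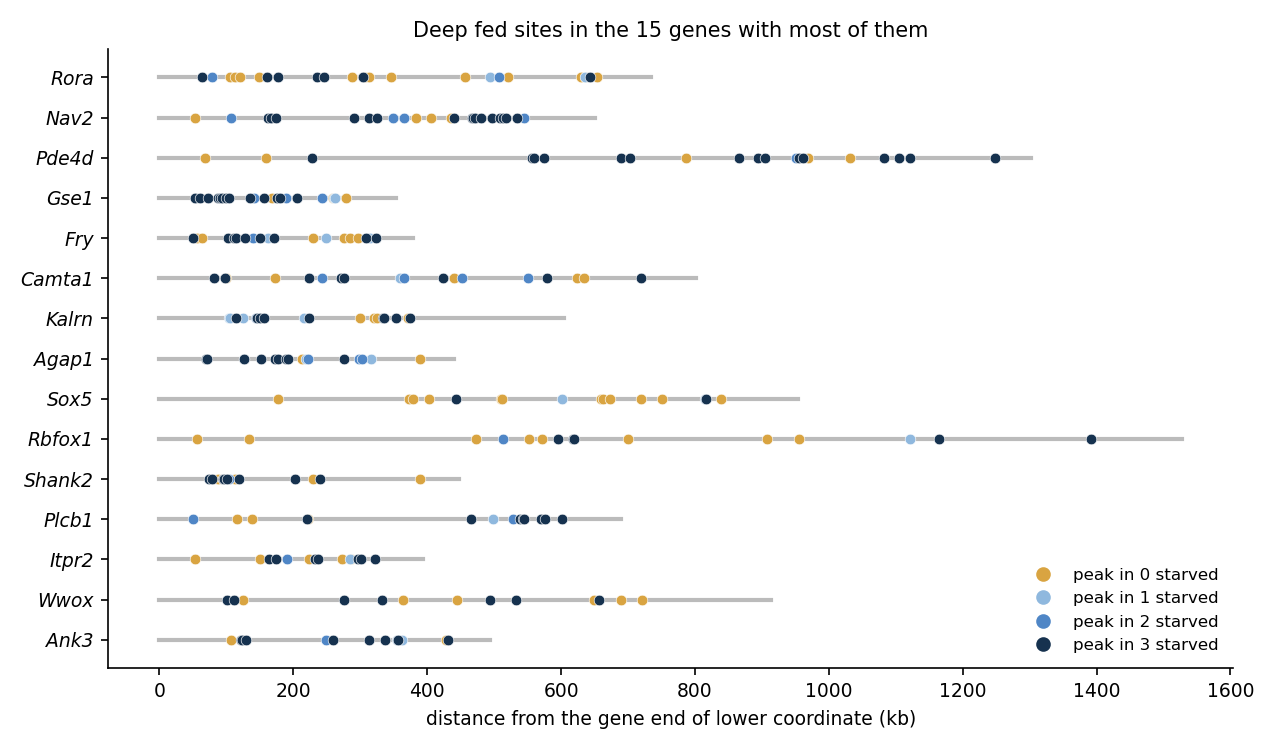
Deep fed sites in the 15 long genes that hold most of them, by distance from the gene end of lower coordinate (x axis, kb). Grey lines are genes and the colour of a point gives how many of the 3 starved libraries had a peak; Nav2 has 4 of 24 sites with none, Sox5 12 of 16.

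Over all 760 genes with a deep site, 232 had a starved peak at each of their deep sites and 97 at none. A lone deep site was held by 176 of the 760, and such a gene falls in either count by definition. Over single sites, 33.6% of deep sites and 29.1% of all fed sites had no starved peak. No expected number of genes was worked out, so these counts are only described. Of the 432 genes with 3 or more deep sites these numbers were 63 and 9. The 9, named after their values were seen, were Kif26b, Fam172a, Tnrc6b, Zdhhc14, Ptprt, Lingo2, Shroom3, Suclg2 and Nell1. Lingo2 and Nell1 held 4 sites each and the others 3, and 1.65 of the 4 in Lingo2 and 1.03 in Nell1 would be expected with a starved peak. At the other end, also named after the fact, Pde3a kept all 7 of its sites, 6 of them in all 3 starved libraries, and Fmn1, Rapgef4 and Dysf all 6 of theirs. The median fed rank was 39.6 in Lingo2 and 34.9 in Nell1, and 59.7 in Pde3a and 79.2 in Fmn1.

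The long genes named next, among them several of hormone and energy control, held between 2 and 10 deep sites, where the median gene with any held 3. Rora, Plcb1 and Wwox, described above, held 24, 14 and 13. Numbers expected from fed rank are given in parentheses. Ghr, the growth hormone receptor, had 4, of which 1 kept a starved peak (1.33). It lay at chr15:3441221-3442079 and was called in all 6 libraries, with scores of 144, 176 and 270 in the fed and 98.4, 31.9 and 88.1 in the starved lists. The other 3 were fed-only, the best at a fed rank of 27.8. Fto, an RNA demethylase gene tied to body weight, kept all 4 of its sites (3.47), 3 of them in every starved library (3.02). Nr3c2, the mineralocorticoid receptor, kept both of its sites (1.82), and the better (chr8:77154332-77155087) scored 224, 212 and 271 and then 58.1, 46.1 and 29.1. Esrrg, an orphan nuclear receptor of oxidative metabolism, kept 2 of 4 (2.40). Dpyd, which degrades pyrimidines in the liver, kept 3 of 6 (2.70) and 0 in all 3 starved libraries (0.25), with its best site at a fed rank of 51.5. Zbtb20, a zinc finger repressor of hepatocyte genes, kept 4 of 9 (4.98), each of the 4 in every starved library (3.67). Dmd, the dystrophin gene and the longest of the 989 at 2390 kb, had 6 deep sites, 4 with a starved peak (3.28). Ppargc1a, a coactivator of fasting gluconeogenesis whose annotated gene spans 662 kb, kept 3 of 10 (3.45), 1 of them in all 3 starved libraries (chr5:52064835-52065654; 181, 171 and 246 in fed and 86.1, 54.0 and 109 in starved lists). Its best fed-only site (chr5:51876680-51877186) scored 35.2, 29.0 and 76.0.

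Gene lists group the deep sites by the function of the gene. The 13 lists held 325 genes, with 19 genes in more than 1 list, and their long genes carried 1128 of the deep sites (38.5%). Shares of sites with a starved peak are to be read beside 66.4% for all deep sites and 70.9% for all fed sites, and they were not tested. All but 1 of the 13 shares lay below the share expected from fed rank, as did that of all deep sites. The exception was liver-related signalling and metabolism with 114 of 160 (71.3%; 70.2% expected from fed rank), in 33 genes. Within that list Prkce kept 10 of 11 (8.69 expected) and Pitpnc1, a phosphatidylinositol transfer protein, 7 of 10 (6.85 expected). Phosphodiesterases and other cAMP or cGMP genes had 60 of 84 (71.4%, with 75.3% expected). There Pde3a kept 7 of 7 (5.90 expected), Pde4b 6 of 8 (5.45 expected) and Pde10a 5 of 10 (6.30 expected). Proteins that link the cytoskeleton to membranes had the highest share, 147 of 197 (74.6%; 77.5% expected). Besides Nav2 and Ank3 they included Dst, a spectraplakin, with 10 of 12 (10.3 expected) and Ank2 with 8 of 12 (8.72 expected).

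The lists of nuclear receptors and of transcription factors had the lowest shares of all lists. The list of nuclear receptors also held the coactivator gene Ppargc1a (3 of 10 sites kept, 3.45 expected). It had 28 of 56 (50%; 54.2% expected) at a median fed rank of 43.7, and without the 24 sites of Rora 17 of 32 (53.1%). Thrb, a thyroid hormone receptor, kept 5 of 8 (4.51 expected). The list of transcription factors and chromatin regulators also held the splicing regulator Rbfox1 (7 of 15 sites kept, 11.01 expected). It had 74 of 144 (51.4%; 59.3% expected) at a median fed rank of 49.6, and without Sox5 70 of 128 (54.7%). Nfia, a nuclear factor I gene, kept 8 of 11 (6.06 expected) and 3 in all 3 starved libraries (3.25 expected). Both medians lay below the 58.7 of all deep sites, and the shares expected from fed rank were low as well. Starved 2 called 30.4% of the sites of nuclear receptors and 34.7% of those of transcription factors, beside 48.2% of all deep sites.

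Genes of cell contact, receptors and ion channels made up 5 lists. Synaptic adhesion proteins and scaffolds had 52 of 84 (61.9%; 73.5% expected) at a median fed rank of 65.5, above that of all deep sites. Dlg2, a postsynaptic scaffold, kept 8 of 11 (9.40 expected) and all 8 in every starved library (7.76 expected). Nrxn3, a neurexin, kept 8 of 10 (9.58 expected) and Sdk1 3 of 9 (3.91 expected). Cadherins and catenins had 23 of 40 (57.5%, with 70.8% expected). Ctnna2 kept 4 of 8 (5.10 expected), Cdh13 5 of 7 (5.41), Ctnna3 3 of 5 (3.92) and Ctnnd2 3 of 4 (3.27). Immunoglobulin-like adhesion and axon guidance genes had 75 of 105 (71.4%, with 78.3% expected). Robo1 kept 9 of 11 (9.40 expected) and Dscam 7 of 11 (8.62 expected). Ntm and Tenm3 kept 6 of 8 each (7.44 and 6.18 expected). Receptor tyrosine phosphatases had 24 of 37 (64.9%, with 71.9% expected). Ptprd kept 8 of 9 (7.01 expected) and Ptprg 3 of 9 (4.57 expected), at median fed ranks of 59.8 and 35.8. Ptprm kept 5 of 6 (4.76 expected) and Ptprn2 4 of 6 (5.11 expected). Neurotransmitter receptors and ion channels had 55 of 89 (61.8%, with 70.7% expected). Grik4 kept 6 of 9 (6.12 expected), Kcnip4 4 of 7 (4.96), Kcnma1 4 of 6 (4.73) and Grid1 3 of 6 (3.34). For a peak in all 3 starved libraries the synaptic list had 44 where 44.4 would be expected, so its shortfall lay in sites called in 1 or 2 starved libraries. Few fed sites of any kind with a fed rank below 50 were called in all 3. That count could therefore hardly show a shortfall among weak sites. Starved 1 called 40% of the cadherin and catenin sites, against 45 and 55% in starved 2 and 3.

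The remaining lists were of mixed function. Large genes at common fragile sites, stretches of DNA that break under replication stress, had 45 of 78 (57.7%, with 65.4% expected). Cntnap2 kept 5 of 7 (6.04 expected). Extracellular matrix genes had 38 of 67 (56.7%, with 65.8% expected). Thsd4 and Gpc5 kept 4 of 8 each (5.81 and 5.86 expected), and Col22a1 and Adamtsl1 5 of 7 each (4.70 and 5.03 expected). Long marker genes of liver cells other than hepatocytes had 50 of 71 (70.4%, with 75.2% expected). Skap1, an adaptor of T cells, kept 8 of 10 (7.22 expected) and Elmo1 7 of 8 (7.11 expected). Peak lists hold no expression, so they do not show which cells of the liver a site came from. A change in cell mixture between the groups was not tested.

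**Figure D5:**
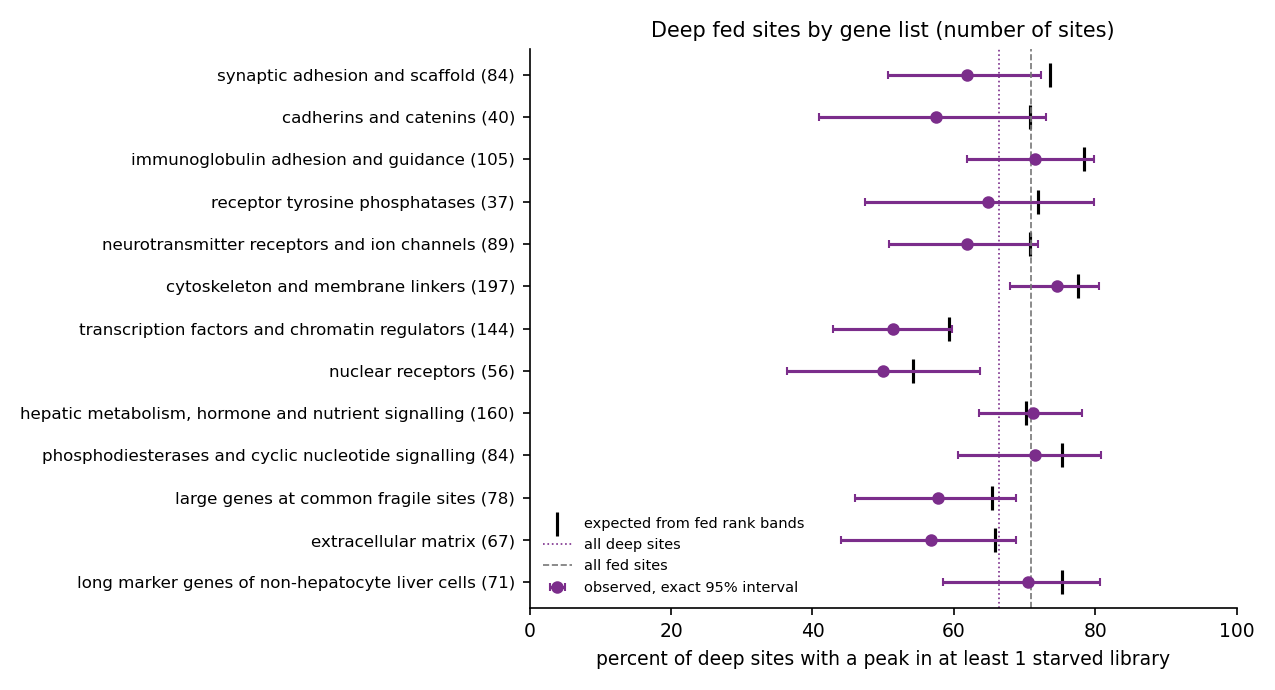
Percent of deep sites with a starved peak (x axis) for 13 lists of long genes (y axis, number of sites in parentheses). Points with bars are shares with exact 95% intervals, black ticks the shares expected from fed rank, and lines all deep sites (66.4%) and all fed sites (70.9%); nuclear receptors and transcription factors lie lowest, at 50 and 51.4%.

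The 10 deep sites of highest fed rank were all called in all 6 libraries. The first (chr6:146405031-146406061) lay in Itpr2 and scored 213, 293 and 357 in the fed and 127, 36.0 and 88.6 in the starved lists. A second Itpr2 site nearby (chr6:146409347-146410801) was among the 10 as well, with 257, 217 and 311 and then 136, 58.5 and 145. Gse1 also had 2 of the 10, at chr8:120318946-120320329 and chr8:120300421-120301554. The others lay in Ctif, Dlgap1, Nedd4l, Ksr2, Etl4 and Igsf21, all at fed ranks of 98.1 to 98.6. Rank in the starved lists varied among them. In Etl4 (chr2:20673036-20673949) it was 64.9, 62.6 and 81.6, and in Nedd4l, a ubiquitin ligase gene, 84.2, 69.9 and 67.5. The Ctif site (chr18:75599227-75600942) held the highest score of the whole starved 1 and starved 3 lists, with 297 and 247, and a rank of 99.99 in starved 2, while its ranks in the fed lists were 98.4, 97.5 and 99.8.

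Deep sites without a starved peak reached lower fed ranks. Ntm, an adhesion protein of neurons, had the first (chr9:29458186-29458728, 464 kb from the nearest gene end), with scores of 56.5, 84.2 and 110 in the fed lists and a fed rank of 66.5. Rbfox1 had 3 of the 10 (chr16:6018533-6019246, chr16:6436490-6436961 and chr16:6791274-6792160), at fed ranks of 61.6, 60.0 and 60.3. Cadm2, Kirrel3, Grin2a, Dtna, Rit2 and Nek11 had 1 each, at fed ranks of 59.6 to 63.1. The lowest-ranked deep site called in all 3 starved libraries, picked after the values were seen, lay in Erc2 (chr14:27710685-27710986, fed rank 33.2), with 14.98, 7.69 and 33.0 in the fed and 7.16, 10.6 and 8.83 in the starved lists.

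Sites at the limits of the definition had high and low ranks on both sides. Just inside the distance limit, at 50.027 and 50.035 kb, were a site in Rabgap1l (fed rank 65.7, 3 starved libraries) and another in Mpp7 (48.0, none). Just outside, at 49.99 and 49.98 kb, lay sites in Ptpro (86.2, 3 starved libraries) and Pcca (35.8, none). For gene length, the nearest inside were in Pcbp3 (200.3 kb, fed rank 95.8, 3 starved libraries) and Pbx3 (200.6 kb, 40.4, none), and the nearest outside were both in Atp9b (199.9 kb), at fed ranks of 65.2 and 12.0, with 3 starved libraries and none.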

How the data were processed

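CTCF ChIP-seq peak lists of 3 fed and 3 starved liver libraries were used, 1 list per library and not pooled; the 3 fed and 3 starved inputs were not analysed here. Each list deposited by the authors gives a position and a score per peak. The sources used here do not give the meaning of the score, the caller's settings or any use of input. The submitters' processing notes name the build mm10 and the tools MACS2, HOMER, BWA 0.7.5a, FastQC, bedtools 2.17 and SAMtools, without their roles. The lowest score was 2.00 to 2.10 in each list. Gene spans, without exons, came from RefSeq genes of GRCm38.p6 (49993 with a position).

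Groups and replicate numbers came from the sample titles. Group differences were tested by two-sided exact permutation over 20 labellings, with Benjamini-Hochberg adjustment over 4 tests; single sites were not tested. Expected numbers apply, in each band of 10 fed rank points, the share of all fed sites. Named were the 15 genes with most deep sites, up to 4 per list, 8 fixed genes, and the 10 best-ranked deep sites and fed-only deep sites; some are not reported here. Members, lists and rules were chosen with earlier results of these data known; bands of 2 were added, and the 4 words replaced a longer motif searched first, after seeing the data. No genome sequence was used, so motifs at most sites and the exon or intron of a site were not analysed here. The code was tested on simulated peak lists. Python 3.11.15, numpy 2.4.6, pandas 2.3.3, scipy 1.17.1 and matplotlib 3.10.9 were used.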

Additional observations from a re-analysis of the deposited data

How the results depend on the processing

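The share of deep sites with a starved peak, 66.4%, was 55.6% with peaks above the median score of all lists (64.4% of all fed sites), 98.6% with lists of equal length (98.8%) and 53.9% when a peak in 2 of 3 fed libraries sufficed (58.4%). It was 56.1 to 66.1% on leaving out each library (60.5 to 70.4% of all fed sites), both lowest without fed 2. Leaving out a fed library also changes which sites are members: without fed 2 there were 3496 deep sites in place of 2932. The difference of −3.90 points from the share expected from fed rank was −0.60 with the stricter score, 0.19 with equal length, and −3.85 to −2.09 on leaving out each library, nearest 0 without starved 1. At equal length 98.4% were expected, so that setting says little about the difference. The stricter score was 1 cut of 30.4 for all lists, although scores rank peaks only within a list, so its fed and starved values may not be comparable. The cause of these shifts was not tested.

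Starved minus fed in the ratio of interior to edge density, −0.0014, was 0.0040 with genes of 100 kb or longer and −0.0057 to 0.0046 on leaving out each library, above 0 without fed 1 or without starved 1. It was larger, with an exact p of 0.1, with the stricter score (−0.083), 100 kb from ends (−0.018) and the ends of all annotated genes (−0.019). Differences in the share of peaks, in rank and in width had the same direction under each of their 17, 17 and 16 alternatives, but not the same size. The share difference ranged from −1.56 (stricter score) to −0.21 (equal length), the rank difference from −3.69 (stricter score) to −0.69 (without starved 2), and the width difference from −0.041 (ends of all annotated genes) to −0.016 (without starved 1). No alternative could give an exact p under 0.05.

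Same-numbered libraries did not deviate together: over 22131 shared sites their deviations from the group means correlated at −0.0040, −0.040 and 0.026. With the replicate block (sign flips of the same-numbered differences, smallest exact p 0.25) the differences were −0.48 (p = 0.25), −0.0014 (p = 1), −1.20 (p = 0.5) and −0.030 (p = 0.5) for share, density ratio, rank and width. Read depth was unknown, which limits what an absent peak shows.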
